A study of Mus musculus with 39 samples.

Results

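Exonic distal regions open in all libraries were stretches of accessible chromatin that reached into an exon, far from any transcription start site, and were called as peaks in every one of 6 ATAC-seq libraries of nuclei from mouse neocortex. They were found by merging the peaks of the 6 lists that overlapped by at least 1 bp into 170178 regions, of which 74590 lay on autosomes and held a peak in all 6 lists. Members had to be under 2000 bp wide, to lie more than 3 kb from every curated RefSeq start site of mm10 and to overlap a curated exon. This left 4952 regions, 8.38% of the 59117 distal regions that met the other conditions, beside 26458 intronic and 27707 intergenic ones. The members were selected on peak presence and position, so their presence in all lists is a description and not a result.

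The nuclei came from adult male and female mice that carried Arc-creERT2 (TG/WT) and a reporter allele, R26 CAG-Sun1-sfGFP-Myc, in a single copy (M/WT) or in both copies (M/M). All groups shared tamoxifen treatment followed by a social interaction test, with tissue taken on the 3rd day. Cre under control of Arc, a gene induced by neuronal activity, switches on the nuclear membrane protein Sun1 fused to sfGFP, so the labelled nuclei depend on where and when the Arc promoter is active and on the reach of tamoxifen. The sfGFP+ nuclei were isolated either by INTACT, in which antibody-coated magnetic beads capture tagged nuclei, or by FANS, in which tagged nuclei are sorted by flow cytometry. ATAC-seq was made from 50000 nuclei a library, with 3 FANS and 3 INTACT libraries that were technical replicates of 1 biological source. RNA-seq was made from 10000 nuclei a library, and the 4 FANS and 4 INTACT libraries of batch 1 were used for the genes that hold the members. Where replicates share 1 source, p-values measure only the spread between libraries.

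In ATAC-seq a transposase cuts and tags DNA that is free of nucleosomes, so read pile-ups mark promoters, enhancers and insulators. Distal open sites lie mostly in introns and between genes, while exons are short, richer in GC than the introns beside them and often covered by positioned nucleosomes. Some coding exons nevertheless carry enhancers or binding sites for factors such as CTCF, and in neurons distal sites are known for binding activity-dependent factors such as AP-1 and MEF2.

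The following members show what such a region looks like at the sequence level. Each window holds 300 bases around the mean summit, read from GRCm38.p6 (mm10 coordinates) on the strand of the gene, with coding bases of curated transcripts in capitals and intron in lower case. Slc1a6, which encodes a glutamate transporter, is shown as the highest inner exon member, and its whole exon 9 of 135 bases lay in the window (chr10:78812698-78812997, plus strand). Sfi1, which encodes a centrin-binding protein, had 156 of the 157 bases of exon 11 (chr11:3164413-3164712, minus strand), and Map3k6, which encodes a MAP kinase kinase kinase, had 182 coding bases from 2 neighbouring exons (chr4:133250700-133250999, plus strand). Both were among the 5 members with the largest difference towards FANS. Chl1, which encodes a neuronal cell adhesion molecule, was among the 5 with the largest difference towards INTACT and held exon 7 with 171 bases (chr6:103665686-103665985, plus strand).
Slc1a6: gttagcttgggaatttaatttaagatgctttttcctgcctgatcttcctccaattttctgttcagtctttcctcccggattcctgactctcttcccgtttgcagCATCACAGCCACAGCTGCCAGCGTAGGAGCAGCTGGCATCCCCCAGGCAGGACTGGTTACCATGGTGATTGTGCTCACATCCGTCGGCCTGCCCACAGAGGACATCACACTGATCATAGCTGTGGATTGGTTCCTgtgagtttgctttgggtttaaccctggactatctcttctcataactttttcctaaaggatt
Sfi1: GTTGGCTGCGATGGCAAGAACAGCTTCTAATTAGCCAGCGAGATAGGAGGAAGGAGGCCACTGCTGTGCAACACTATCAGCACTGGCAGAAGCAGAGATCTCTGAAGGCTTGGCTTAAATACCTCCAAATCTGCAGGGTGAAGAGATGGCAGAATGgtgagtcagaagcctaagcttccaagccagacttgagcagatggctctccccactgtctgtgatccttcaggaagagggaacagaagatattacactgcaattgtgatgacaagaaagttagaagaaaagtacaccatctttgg
Map3k6: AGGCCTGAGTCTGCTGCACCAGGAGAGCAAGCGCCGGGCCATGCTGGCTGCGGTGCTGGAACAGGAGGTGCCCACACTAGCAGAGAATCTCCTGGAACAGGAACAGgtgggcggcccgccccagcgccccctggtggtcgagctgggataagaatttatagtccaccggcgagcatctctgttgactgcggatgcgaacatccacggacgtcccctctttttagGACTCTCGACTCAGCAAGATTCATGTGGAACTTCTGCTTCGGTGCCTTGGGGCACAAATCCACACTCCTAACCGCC
Chl1: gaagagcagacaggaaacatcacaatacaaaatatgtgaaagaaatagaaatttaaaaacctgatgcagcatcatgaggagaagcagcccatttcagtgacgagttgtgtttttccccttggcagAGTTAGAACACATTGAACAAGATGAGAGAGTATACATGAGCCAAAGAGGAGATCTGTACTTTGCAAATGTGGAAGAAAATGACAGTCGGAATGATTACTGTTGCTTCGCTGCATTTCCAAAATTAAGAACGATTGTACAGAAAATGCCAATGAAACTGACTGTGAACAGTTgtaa

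In these members exonic bases made up 17.6% of the Slc1a6 region, 30.7% of Sfi1, 46.5% of Map3k6 and 14.5% of Chl1. The GC content of the windows was 48.7% for Slc1a6, 48% for Sfi1, 59.7% for Map3k6 and 38.3% for Chl1. The Sfi1 window held the AP-1 letters TGANTCA, and the Map3k6 window held a core of the CTCF motif. Of all 74590 regions, 18.7% held the first motif and 4.78% the second within the same length.

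Most members reached into inner exons. By the exon that covered most of the region, 3444 members (69.5%, Wilson 95% interval 68.3 to 70.8%) lay on an inner exon and 1485 (30.0%, 28.7 to 31.3%) on a last exon. Only 3 lay on a first exon, 8 on the exon of a gene with a single exon, and for 12 the class differed between transcripts. The intervals cover counting error only. Since the distance rule removed most first exons, the few first exon members follow from the rule: first exons made up 0.0911% of the exonic bases more than 3 kb from a start site. Inner exons made up 43.0% and last exons 56.8% of those bases. Inner exons are shorter and more numerous than last exons, and an overlap of 1 bp was enough. When at least 50% of a region had to be exonic, 1391 members were left, of which 19.2% were on inner and 79.7% on last exons.

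The summits themselves were more often outside the exon than in it. The mean summit over the 6 lists lay in no exon for 3011 members (60.8%), in coding sequence for 1055 (21.3%), in a 3' UTR for 713 (14.4%), in an exon of a non-coding transcript for 137 (2.77%) and in a 5' UTR for 36 (0.727%). Of the inner exon members, 75.8% had the summit in no exon and 22.3% in coding sequence, and 69.5% enclosed their whole exon. Of the last exon members, 47.7% had the summit in a 3' UTR, 19.1% in coding sequence and 26.5% in no exon, and 5.19% enclosed the whole exon. Members were 754 bp wide in the median, and 719 (14.5%) were exonic over their full length. Exonic bases made up 3.36% of the bases of all distal regions of this kind and 2.24% of all autosomal bases more than 3 kb from a start site.

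**Figure D1:**
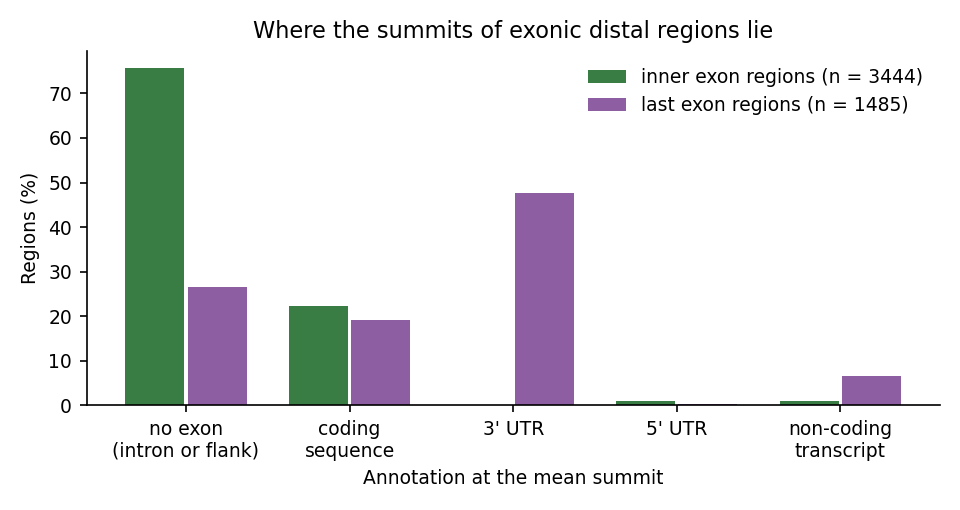
Percentage of inner exon members (n = 3444) and last exon members (n = 1485) whose mean summit lay in each kind of sequence. Summits of inner exon members lay mostly in no exon (75.8%), while the 3' UTR was the most frequent place for last exon members (47.7%).

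Height was taken as the fold enrichment at the summit of the highest peak of a list in the region, and its percentile as the rank among the 74590 regions within that list. The median percentile of the members was 44.3, 43.9 and 43.9 in the FANS lists and 37.7, 37.7 and 38.2 in the INTACT lists. The FANS lists were all higher than the INTACT lists, with no overlap. Intronic regions had medians of 42.9, 43.3 and 42.9 in FANS and 41.5, 41.4 and 41.4 in INTACT, and intergenic regions 48.6, 48.7 and 48.9 in FANS and 54.3, 54.5 and 53.7 in INTACT. Exonic members thus ranked just above intronic regions in FANS and below them in INTACT, and below intergenic regions in both. Regions within 3 kb of a start site stood at 71.2 to 72.7 in FANS and 65.4 to 67.1 in INTACT. Among the members, inner exon ones had a median of 42.4 over the 6 lists and last exon ones 36.7. The spread within each class was wider than that gap, with quartiles of 22.7 and 63.5 for inner and 18.5 and 58.7 for last exons.

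**Figure D2:**
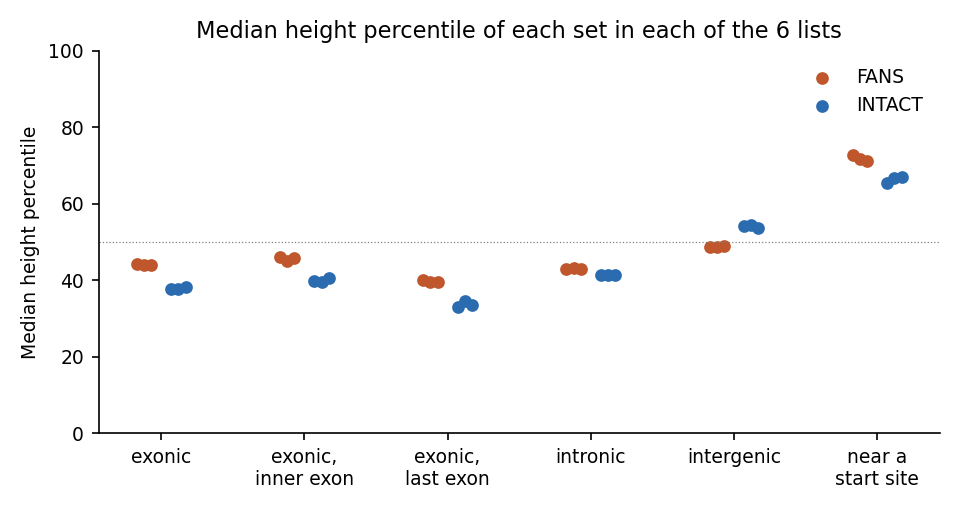
Median height percentile (0 to 100, among 74590 regions) of exonic members, their inner and last exon classes, intronic, intergenic and start site regions, 1 point for each of 3 FANS and 3 INTACT lists. The exonic points of INTACT (37.7 to 38.2) lie below those of FANS (43.9 to 44.3), and intergenic points lie the other way round.

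The 2 highest members were last exon regions of Gal3st2b and Lars2. The Gal3st2b region (chr1:93940506-93941164) lay wholly in the coding part of exon 4 of a gene for a galactose sulfotransferase. Its height was 32.2, 33.4 and 32.8 in FANS and 27.0, 27.5 and 33.0 in INTACT, a percentile of 99.99 in every list. The Lars2 region (chr9:123461793-123462194) lay in the 3' UTR in exon 21 of the gene for mitochondrial leucyl-tRNA synthetase, with heights of 34.8, 32.4 and 34.1 in FANS and 26.2, 23.6 and 29.6 in INTACT. Both held sequence that occurs elsewhere in the genome: 86.3% of the 31-base words in the 300 bases around the summit of Gal3st2b, and 63.7% of those of Lars2, were found more than once on the assembled chromosomes. The authors kept properly paired reads with a mapping quality of at least 10, which removes many reads that map to several places, and the part of copies in these heights was not tested.

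The other 8 of the 10 highest members held at most 2.96% of such words. They were Bcat2 (branched-chain amino acid transaminase, last exon, mean percentile 99.7), Gm4146 (last exon, 99.6), 1810019N24Rik (last exon, 99.4), Slc1a6 (inner exon, 99.3), Tsga13 (inner exon, 99.3), Aldh7a1 (an aldehyde dehydrogenase, inner exon, 99.2), Ccdc126 (inner exon, 98.6) and Chia1 (an acidic chitinase, last exon, 98.6). Slc1a6 had heights of 27.96, 24.5 and 26.6 in FANS and 20.8, 17.8 and 23.7 in INTACT. Bcat2 had 26.4, 25.9 and 25.3 in FANS and 21.9, 20.3 and 25.0 in INTACT. In both cases each FANS list was above each INTACT list on the deposited scale. All heights of the lists differ in scale, with a median over the members of 8.35 to 8.76 in FANS and 6.45 to 7.81 in INTACT.

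The first exon and single exon members reached from the lowest heights to a mean percentile of 83.5. The first exon members were in Gm46841 (mean percentile 54.1), Kcna6, a voltage-gated potassium channel (0.429), and Pcdh17, a protocadherin (0.338). The Kcna6 and Pcdh17 regions were among the lowest of all, with percentiles of 0.0483 to 1.23 and 0.109 to 0.550 over the 6 lists. The highest single exon members were in A830082N09Rik (83.5), F630111L10Rik (62.5) and Gm16523 (61.4), all genes without a described protein product.

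Repeated sequence touched few members. Of the 4952 members, 4528 (91.4%) held no 31-base word found more than once, and 28 (0.565%) held at least 50% of such words. These 28 were picked out after their values were seen, and 2 of them (Acaca and Lars2) were higher in FANS and 5 higher in INTACT, beside 13.1% and 5.37% of all members and 10.1% and 10.9% of all regions. They included 3 sulfotransferase genes and 3 dynein heavy chain genes on chromosome 1 and 4 genes close together on chromosome 8, 3 of them named for the ADAM metalloproteases. Gal3st2, Gal3st2b and Gal3st2c had mean percentiles of 85.6, 99.99 and 98.4. Dnah7a, Dnah7b and Dnah7c, whose members sat on inner coding exons, had mean percentiles of 95.3, 85.2 and 80.4, and Dnah7c was higher in INTACT (log2 difference 0.36, limma adjusted p = 0.0106). Adam26b, Adam34, Adam34l and Gm5347, all with the summit in the coding part of the last exon, were called higher in INTACT.

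Among the 4, quantile-normalised heights of Adam34 were 7.94, 6.65 and 6.38 in FANS and 14.7, 15.5 and 11.3 in INTACT, a log2 difference of 0.98 (SE 0.14, limma adjusted p = 0.000419). Those of Adam34l were 4.06, 4.21 and 5.09 in FANS and 7.75, 4.72 and 8.97 in INTACT (log2 difference 0.64, SE 0.21, limma adjusted p = 0.0481). The groups did not overlap for Adam34 and overlapped for Adam34l. The 4 regions share part of their sequence, and whether their heights are independent was not tested.

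Between techniques, 650 members (13.1%) were higher in FANS and 266 (5.37%) higher in INTACT at an adjusted p under 0.05 in limma, on quantile-normalised log2 heights over all 74590 regions. Of all regions, 10.1% were higher in FANS and 10.9% higher in INTACT. The members therefore held a larger share of FANS calls and a smaller share of INTACT calls than the background, and the difference between the shares was not tested. The median log2 difference (INTACT minus FANS) was -0.08 over the members and -0.01 over all regions, and 61.9% of members were below 0. A difference of at least 1.5-fold was present in 343 of the 650 and in 121 of the 266. Without scaling between lists, where the median log2 difference of all regions was -0.16, the calls were 1033 towards FANS and 106 towards INTACT, so FANS made up 90.7% of the calls in place of 71.0%. Over all regions the same change took the FANS share of calls from 48.0% to 75.2%, so the shift was not particular to the members. With the -log10 q-value as height the calls of members were 1670 towards FANS and 858 towards INTACT. Without FANS replicate 1 or 2 those towards FANS were 433 and 419.

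The same direction was present in both main exon classes. On inner exons 14.0% of members were higher in FANS and 5.84% in INTACT, and on last exons 11.0% and 4.31%. Members with the summit in coding sequence had the largest share of FANS calls among the summit classes of over 100 members, 17.2% against 4.27% for INTACT. For summits in no exon the shares were 12.3% and 6.24%, and for summits in a 3' UTR 10.7% and 3.65%. Among distal regions outside exons, 9.21% of the intronic ones were higher in FANS and 7.73% in INTACT, and of the intergenic ones 8.98% and 19.4%. Regions within 3 kb of a start site leaned as the members did, with 13.0% and 3.17%.

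The technique difference moved with GC content. Members had a median GC content of 48.9%, intronic regions 46.1% and intergenic regions 45.1%. The members higher in FANS had a median of 52.1% and those higher in INTACT 43.5%. Across the 4952 members, Spearman's rho between GC content and the log2 difference was -0.376, as a description across regions that share the 6 libraries. Under 42% GC, 3.97% of members were higher in FANS and 18.4% in INTACT, and at 57% or more 24.6% and 2.56%. Within a GC range the members and the intronic regions were close: at 47 to 52% GC, 12.9% of members and 12.1% of intronic regions were higher in FANS, and 3.22% and 2.92% in INTACT. At 57% or more the FANS shares were 24.6% for members, 17.4% for intronic and 22.3% for intergenic regions. The part of GC content in the technique difference was not tested further, and read depth, which the lists do not give, cannot be told apart from technique.

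**Figure D3:**
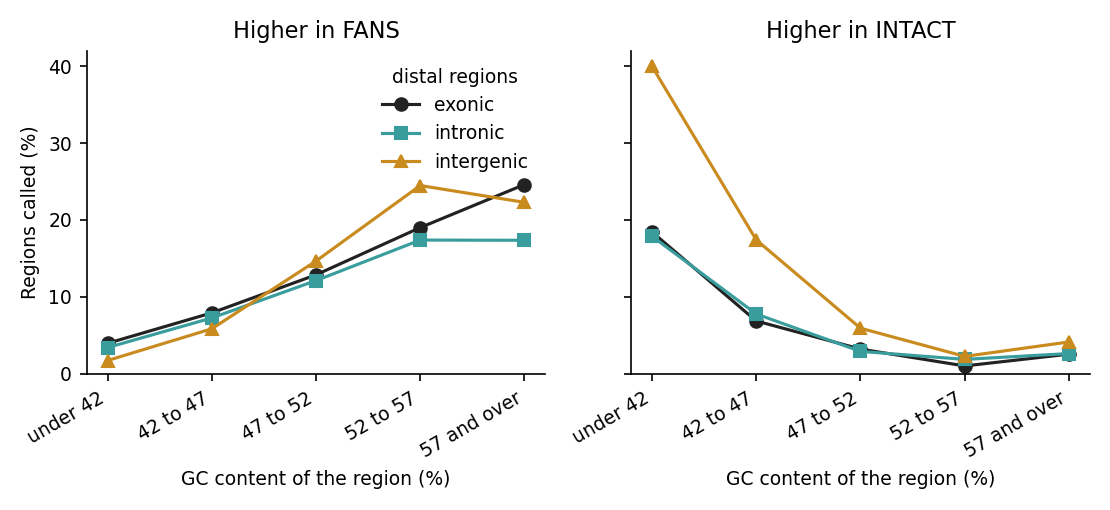
Percentage of exonic, intronic and intergenic distal regions called higher in FANS (left) or in INTACT (right), by limma at an adjusted p under 0.05, in 5 ranges of GC content. From under 42% to 52 to 57% GC the share called higher in FANS grew and the share called higher in INTACT shrank in all 3 classes, while at 57% or more the INTACT shares were slightly larger again. The exonic line runs close to the intronic one below 57% GC.

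The 5 members with the largest difference towards FANS were in Dmc1, Jpt2, Sfi1, Tcf23 and Map3k6, all with no overlap between techniques. Dmc1, which encodes a meiotic recombinase, had quantile-normalised heights of 17.1, 15.96 and 13.1 in FANS and 4.43, 5.06 and 4.07 in INTACT at inner exon 4 (log2 difference -1.76, SE 0.14, limma adjusted p = 2.53e-05). Jpt2 had heights of 14.6, 15.5 and 13.4 in FANS and 3.35, 5.06 and 5.65 in INTACT, in the 3' UTR (log2 difference -1.66, SE 0.18, limma adjusted p = 7.85e-05). The Sfi1 region, whose sequence is printed above, had 6.80, 8.06 and 9.83 in FANS and 2.95, 2.63 and 2.39 in INTACT (log2 difference -1.62, SE 0.17, limma adjusted p = 7.07e-05). Each of these 3 regions was higher in every FANS library than in any INTACT library. Tcf23, a gene of a bHLH factor, had 12.3, 11.4 and 15.5 in FANS and 4.98, 4.06 and 4.07 in INTACT in its 3' UTR (log2 difference -1.57, SE 0.15, limma adjusted p = 5.61e-05). Map3k6 had 13.3, 10.9 and 11.3 in FANS and 3.87, 4.06 and 4.07 in INTACT (log2 difference -1.56, SE 0.14, limma adjusted p = 3.71e-05). The GC content of the 5 regions ran from 39.1% for Dmc1 to 60.6% for Map3k6.

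The 5 members with the largest difference towards INTACT were in Sim1, Glra3, Pkhd1l1, Chl1 and C630028M04Rik, and the techniques did not overlap in any of them. The Sim1 region, in the 3' UTR of the gene for a hypothalamic transcription factor, had 5.61, 6.80 and 6.54 in FANS and 15.7, 13.5 and 15.9 in INTACT (log2 difference 1.25, SE 0.12, limma adjusted p = 5.61e-05). Glra3, a glycine receptor subunit, had 9.18, 8.66 and 9.04 in FANS and 19.9, 17.3 and 20.3 in INTACT, in its 3' UTR (log2 difference 1.09, SE 0.09, limma adjusted p = 2.67e-05). Pkhd1l1 had 5.81, 6.45 and 7.08 in FANS and 14.0, 15.5 and 11.8 in INTACT, on inner exon 47 (log2 difference 1.09, SE 0.13, limma adjusted p = 0.000163). All 5 regions were low in GC, from 34.9% for Sim1 to 41.2% for Chl1. The Chl1 region, whose sequence is printed above, had 4.06, 4.21 and 4.56 in FANS and 10.9, 10.4 and 5.83 in INTACT, with INTACT replicate 3 nearest to FANS (log2 difference 1.02, SE 0.21, limma adjusted p = 0.00354). C630028M04Rik, a non-coding gene, had 4.06, 4.73 and 3.51 in FANS and 8.33, 9.20 and 7.36 in INTACT (log2 difference 1.02, SE 0.16, limma adjusted p = 0.0007).

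**Figure D4:**
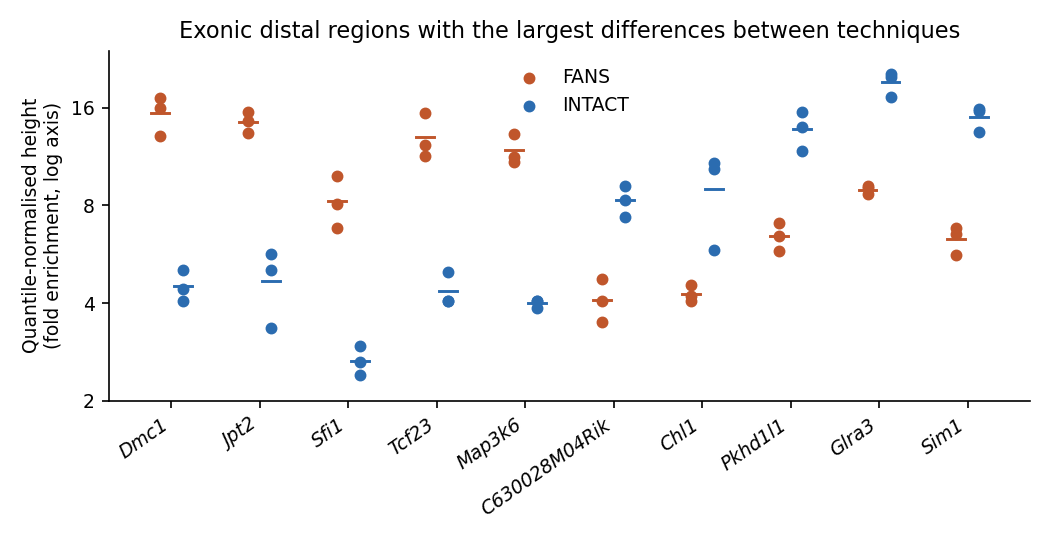
Quantile-normalised height (fold enrichment, log axis) of the 5 members with the largest difference in each direction, 1 point for each library and a line at the mean of 3. The 5 regions on the left were higher in FANS and the 5 on the right higher in INTACT, with no overlap between techniques.

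Of the highest members, 2 differed between techniques by less than the regions above but past the threshold. Lars2 had quantile-normalised heights of 33.0, 30.6 and 32.5 in FANS and 27.8, 27.6 and 30.6 in INTACT (log2 difference -0.16, SE 0.04, limma adjusted p = 0.0129). Slc1a6 had 26.4, 23.2 and 25.0 in FANS and 21.98, 20.6 and 23.2 in INTACT (log2 difference -0.18, SE 0.06, limma adjusted p = 0.0334). In Lars2 the lowest FANS and the highest INTACT value were level at 30.6, in Slc1a6 the techniques overlapped, and there the direction turned (0.025) when the -log10 q-value was used as the height. Leaving out replicate 1 of either technique, or replicate 2 of INTACT, ended both calls, and leaving out FANS replicate 3 ended that of Slc1a6. For Gal3st2b, heights of 30.3, 31.8 and 30.3 in FANS and 28.4, 30.3 and 32.5 in INTACT overlapped.

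Sequence around the summits differed between member classes. The ratio of observed to expected CpG had a median of 0.289 in the members, 0.219 in intronic and 0.214 in intergenic regions, and 0.762 near start sites. In members with the summit in coding sequence it was 0.398, with a median GC content of 53.3% in the 300-base window, and in coding last exons 0.448 and 56.3%. Soft-masked repeats covered 5.78% of the windows with a coding summit, 8.70% over all members and 10.6% in intronic regions.

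Motifs were counted as plain letters on both strands in the 300-base window, where a match is a description and not a binding site. The CTCF core was present in 7.51% of members, 4.20% of intronic, 5.23% of intergenic and 4.78% of all 74590 regions. Members higher in FANS held it in 10.8% and those higher in INTACT in 5.64%. The AP-1 letters TGANTCA were present in 17.5% of members, 22.3% of intronic and 22.1% of intergenic regions. Among the members they were least frequent with the summit in coding sequence (12.7%) and most frequent among the larger classes with no exon at the summit (19.0%). The MEF2 motif was present in 2.18% of members with a coding summit, 6.64% of those with no exon at the summit and 6.89% of intronic regions.

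The GC-rich letters went the other way. GGGCGG, the core of the Sp1 site, was present in 12.3% of members and 18.01% of those with a coding summit, against 6.55% of intronic regions, and GTGGGCG, bound by Egr1, in 5.57%, 8.63% and 3.47%. GACGTCA, a CREB site, was present in 1.66% of members and 0.998% of intronic regions. Over all 74590 regions, which include those near start sites, the shares were 17.6%, 5.48% and 1.85%. CAGATG, an E-box of neuronal bHLH factors, and GTTGCCA, bound by RFX factors, were present in 36.4% and 5.03% of members and 36.6% and 5.095% of intronic regions. GTGGGCG and GGGCGG overlap, so a single stretch can count for both.

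The 4952 members lay in exons of 3852 genes, and 3749 of these were in the table of RNA-seq batch 1. Most genes held 1 member (3017), 835 held 2 or more and 29 held 5 or more. Of the host genes in the table, 3298 (88.0%) had a mean of at least 5 normalised counts, against 57.9% of the other autosomal genes. Per kb of exon, the median level of the tested host genes was 76.1, 78.0, 77.4 and 76.8 normalised counts in FANS and 72.5, 71.9, 71.9 and 71.7 in INTACT. The other autosomal genes had medians of 53.1 to 53.6 in FANS and 53.4 to 54.2 in INTACT. Host genes were longer as well, with a median of 52885 bp from end to end and 4456 bp of exon, against 16764 and 2734 bp.

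The share of genes that held a member was larger at higher RNA level and, more so, at greater gene length. Of genes without a read in any library 1.48% held a member, and of genes with a mean above 0 and under 5, 8.38%. In 4 equal groups of tested genes, from the lowest to the highest count per kb of exon, the shares were 19.2, 19.4, 23.5 and 28.8%. By gene length they were 3.83% in the shortest and 43.9% in the longest of 4 equal groups. Among the longest genes, 38.2% of those with lower and 49.5% of those with higher RNA level held a member, while among the shortest the values were 4.08 and 3.58%. Longer genes have more exons in which a region can lie, so these shares are no rate per exon.

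**Figure D5:**
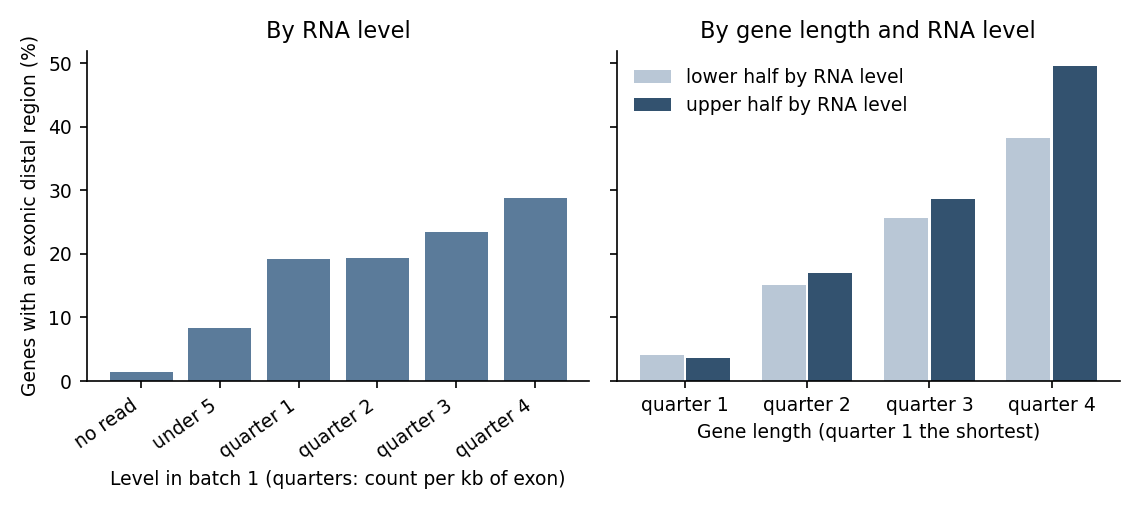
Percentage of autosomal genes with an exonic distal region, by RNA level in batch 1 (left) and by gene length in 4 equal groups, split by RNA level (right). The share was 1.48% for genes without a read and 28.8% in the group with the highest level, and it was 3.83% for the shortest and 43.9% for the longest genes.

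A gene's RNA level and the height of its member went in opposite directions, though weakly. Over 4310 members with a single tested host gene, Spearman's rho between mean height percentile and count per kb was -0.171, as a description across members that share libraries and in part genes. It was -0.161 for inner and -0.227 for last exon members. The median level was 107 counts per kb in the lowest of 4 equal groups by height, then 88.8, 75.2 and 63.0 in the highest, with an interquartile range of 20.1 to 140 in the highest. The extremes of level among host genes with a mean of at least 5 normalised counts show the span. Snhg11, a non-coding host of small nucleolar RNAs, had 14017 counts per kb, R3hdm1 3388 and Gria2, an AMPA receptor subunit, 1860. Abca13, Pkhd1 and Tg, the gene of thyroglobulin, had 0.387, 0.606 and 0.649, while host genes under that mean could be lower still, as Tcf23 with 0.0405.

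The technique difference of a member and that of its host gene's RNA were set side by side. Spearman's rho between the log2 difference in height and that in RNA was 0.00358 over the 4310 members. Of the host genes tested, 56 (1.70%) were higher and 104 (3.15%) lower in INTACT at an adjusted p under 0.05 and at least 1.5-fold in limma, beside 4.03% and 3.94% of all 15114 genes tested. Without the fold threshold, 1339 of the 3298 host genes tested passed in either direction, beside 5458 (36.1%) of all genes tested. The smaller shares of host genes above therefore hold only with the fold threshold. The median log2 fold change (INTACT over FANS) was -0.07 over the host genes and 0.01 over all genes. The counts that follow cover only the 4310 members with a single tested host gene, and gene calls needed 1.5-fold as well. Of those higher in FANS, 14 lay in a gene lower and 11 in a gene higher in INTACT. The other 530 lay in a gene that was not called. Of the members higher in INTACT, 6 lay in a gene higher and 4 in a gene lower in INTACT, and 191 in a gene that was not called. Members called in neither direction lay in a gene higher (50), lower (107) or not called (3397). By gene, 2.04% of the tested hosts of members higher in FANS rose in INTACT and 2.78% fell. For hosts of members higher in INTACT the shares were 3.125% and 2.08%, and for all tested host genes 1.70% and 3.15%. The differences between these shares were not tested. The RNA-seq and the ATAC-seq were made from different libraries, and whether they shared animals was not established here.

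Among the host genes with the largest rise in INTACT at a mean of at least 50 were Reep5, Rapgef3, Ctsb and Thy1. Reep5, a shaper of the endoplasmic reticulum, had 415, 459, 357 and 504 normalised counts in FANS and 772, 809, 844 and 792 in INTACT (log2 fold change 0.90, SE 0.08, limma adjusted p = 2.17e-09). Thy1, a surface protein of neurons, had 806, 777, 624 and 720 in FANS and 1311, 1290, 1373 and 1268 in INTACT (log2 fold change 0.85, SE 0.06, limma adjusted p = 3.27e-10). The techniques did not overlap in either gene. Rapgef3 and Ctsb, the gene of the protease cathepsin B, rose by 0.87 and 0.85 on the log2 scale (SE 0.15 and 0.07, limma adjusted p = 5.26e-05 and 8.65e-10).

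The host genes that fell most in INTACT were 4931430N09Rik, Lrtm1, 4921534H16Rik, Iqcj and A930011G23Rik. Lrtm1, which encodes a membrane protein with leucine-rich repeats, had 584, 609, 724 and 712 normalised counts in FANS and 208, 180, 183 and 192 in INTACT (log2 fold change -1.78, SE 0.08, limma adjusted p = 2.25e-14). 4931430N09Rik had 148, 182, 222 and 159 in FANS and 53.6, 32.9, 54.5 and 52.2 in INTACT (log2 fold change -1.87, SE 0.16, limma adjusted p = 1.73e-09). In both genes the techniques were far apart, with no overlap. The log2 fold changes of 4921534H16Rik, Iqcj and A930011G23Rik were -1.64, -1.42 and -1.38 (limma adjusted p = 3.97e-12, 2.83e-08 and 1.66e-07). The single exon host genes F630111L10Rik and Gm16523 also fell, by 1.38 and 0.98 on the log2 scale (limma adjusted p = 1.07e-10 and 4.29e-08).

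Markers of other cell types moved with technique in the same libraries. The counts of called genes below stand beside 4.03% higher and 3.94% lower in INTACT of all 15114 genes tested. The summed normalised counts of 22 oligodendrocyte lineage genes, all tested and none at 0, were 7904 to 9579 in FANS and 12306 to 13083 in INTACT, and 11 of the 22 rose. Those of 17 astrocyte genes, all tested, were 7501 to 8234 in FANS and 9063 to 9342 in INTACT, and 10 of the 17 rose. Those of the 16 inhibitory neuron genes were 617 to 747 in FANS and 884 to 971 in INTACT, and 4 of 13 tested rose (Npy, Slc32a1, Sst and Vip), while 0 of the 16 excitatory neuron genes were called (limma, as above), with sums of 17161 to 17581 and 17386 to 18034. Microglial genes (6 of 15 tested, with Ctss risen and P2ry12 fallen) had sums of 298 to 387 and 330.5 to 364, and vascular genes (7 of 16 tested, with Pdgfrb and Vtn risen and Tek fallen) 105 to 184 and 146 to 168. Genes of excitatory neurons and of glia were both detected in every library. The share of reads outside annotated features also differed with no overlap, at 79.4 to 81.7% for the FANS libraries and 71.3 to 72.7% for the INTACT ones, and its part in the RNA differences was not tested. In bulk libraries more nuclei of a type and more RNA per nucleus cannot be told apart, and the part of the glial difference in the host genes that rose was not tested.

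Members lay in 4 of the 17 astrocyte genes (23.5%), 6 of the 22 oligodendrocyte lineage genes (27.3%), 1 of the 15 microglial genes (6.67%) and 4 of the 16 vascular genes (25%), beside 16.2% of all autosomal genes in the table. Fgfr3, a growth factor receptor of astrocytes, had 29.6, 22.1, 13.6 and 21.4 normalised counts in FANS and 51.9, 43.6, 41.8 and 39.7 in INTACT (log2 fold change 1.04, SE 0.23, limma adjusted p = 0.000823). Cnp, a myelin enzyme, had 135, 119, 140 and 113 in FANS and 195, 219, 171 and 192 in INTACT (log2 fold change 0.61, SE 0.11, limma adjusted p = 5.38e-05), which came under 1.5-fold without FANS replicate 2 or 4 or INTACT replicate 2 (0.55 to 0.58). Pdgfrb, a receptor of pericytes, had 12.9, 14.7, 19.1 and 21.4 in FANS and 33.7, 24.5, 31.9 and 30.4 in INTACT (log2 fold change 0.81, SE 0.25, limma adjusted p = 0.0118). In each of the 3 genes every INTACT library was above every FANS library. Heights of the members on these lists were compared separately. Their calls, 1 of 5 astrocyte, 1 of 6 oligodendrocyte lineage and 4 of 5 vascular members, stand beside 13.1% of all members higher in FANS and 5.37% higher in INTACT (10.1% and 10.9% of all regions), and are too few to compare with these shares. A member of Fgfr3 was higher in FANS (log2 difference -0.84, limma adjusted p = 0.00201), the opposite direction to its RNA. A member of Myrf, a myelin transcription factor, was higher in FANS as well (-0.55, limma adjusted p = 0.0162). Members of the vascular growth factor receptors Kdr and Flt1 were also higher in FANS (-0.56 and -0.51, limma adjusted p = 0.0254 and 0.0422). The highest astrocyte list member, at inner exon 18 of Aldh1l1, had quantile-normalised heights of 13.5, 15.1 and 15.6 in FANS and 15.9, 14.6 and 15.3 in INTACT, which overlap. That of the oligodendrocyte gene Bcas1 had 13.6, 14.6 and 14.9 in FANS and 15.0, 14.1 and 13.3 in INTACT, which also overlap. At inner exon 21 of Abcb1a, a drug transporter of brain endothelium, heights of 9.40, 7.66 and 8.51 in FANS were all below 14.2, 12.6 and 17.5 in INTACT (log2 difference 0.79, SE 0.13, limma adjusted p = 0.000916). A second Abcb1a member was also higher in INTACT (log2 difference 0.73, limma adjusted p = 0.0168), so the 5 vascular members held 2 calls in each direction.

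Of 70 cytoskeletal and scaffold genes, all tested, 47 (67.1%) held 119 members, beside 16.2% of all autosomal genes in the table. A member lay in 22.7% of all tested autosomal genes and in 43.9% of the longest of 4 equal groups of them. The genes of this list were long, with a median of 130738 bp, and the difference in share was not tested. Their products build the cell skeleton, the synapse and the active zone. Their members were mostly on inner exons (103 of 119), with a median percentile of 33.7, and 15 (12.6%) were higher in FANS and 2 (1.68%), in Dst and Tiam1, in INTACT, beside 13.1% and 5.37% of all members. The largest difference was in Sptbn4, a spectrin of axon initial segments (log2 difference -1.02, limma adjusted p = 0.000797). Of the 47 host genes tested, 4 fell in limma, beside 3.15% of all host genes and 3.94% of all genes, with a median log2 fold change of -0.19. Erc2, an active zone protein, had 3060, 3192, 3685 and 3191 normalised counts in FANS and 1744, 1579, 1583 and 1761 in INTACT (log2 fold change -0.98, SE 0.05, limma adjusted p = 1.47e-12). Its relative Erc1 fell by 0.74 and Rims2, which tethers vesicles, by 0.67 on the log2 scale (SE 0.07 and 0.05, limma adjusted p = 4.9e-09 and 4.38e-10), and Dlgap2, a postsynaptic scaffold, by 0.62 (limma adjusted p = 4.92e-10). The highest member of the list was at inner exon 71 of Macf1, a linker of actin and microtubules, with a mean percentile of 92.8 and heights of 17.8, 19.3 and 18.02 in FANS and 18.7, 15.2 and 18.4 in INTACT. The techniques overlapped there.

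Of ion channel genes, 50 of 168 held 78 members, 13 (16.7%) higher in FANS and 3 (3.85%) in INTACT, beside 13.1% and 5.37% of all members, with a median percentile of 47.3. The 3 were in Scn1a, Clcn3 and Cacna1a (log2 difference 0.69, 0.44 and 0.24), and the largest difference towards FANS was in Trpm4, a calcium-activated cation channel (-0.90, limma adjusted p = 0.000344). The highest was at inner exon 10 of Cacna1b, the pore subunit of N-type calcium channels, with quantile-normalised heights of 16.6, 15.6 and 16.9 in FANS and 17.7, 17.6 and 17.0 in INTACT (mean percentile 90.6). Every INTACT value was higher there, but the difference did not pass the test (0.09, SE 0.06, limma adjusted p = 0.355). Of 49 host genes tested 1 was called lower, beside 3.15% of all host genes and 3.94% of all genes. This was Kcnip4, a potassium channel partner, which fell from 584, 581, 711 and 585 normalised counts in FANS to 311, 330, 317 and 351 in INTACT (log2 fold change -0.91, SE 0.07, limma adjusted p = 7.19e-10). Of transmitter receptor genes, 24 of 91 held 31 members, 4 (12.9%) higher in FANS and 3 (9.68%) in INTACT, beside 13.1% and 5.37% of all members and 10.1% and 10.9% of all regions. The 4 were in Grin1, Gabrg3 and, at 2 regions, Grik4, and the 3 in Grik2, Gabrb2 and Glra3. The highest was at inner exon 3 of Grm8, a metabotropic glutamate receptor, at a mean percentile of 97.8, with heights of 20.1, 21.5 and 20.4 in FANS and 21.1, 21.3 and 19.9 in INTACT, which overlap.

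Adhesion and axon guidance genes held 114 members in 74 of 228 genes, 6 of them (5.26%) higher in FANS and 10 (8.77%) in INTACT, beside 13.1% and 5.37% of all members and 10.1% and 10.9% of all regions. Those higher in FANS were in Slit1, Cdh26, Plxnd1, Ephb1 and, at 2 regions, Celsr3, with log2 differences of -0.87 to -0.39. Those higher in INTACT were in Cdh20, Pcdh15, Cadm2, Robo1, Cntnap5c, Chl1, Cntnap4, Fat3 and, at 2 regions, Tenm3, with 0.22 to 1.02. The highest was at the last exon of Sema4a, a semaphorin, with quantile-normalised heights of 19.7, 20.3 and 20.2 in FANS and 19.2, 14.0 and 17.6 in INTACT (mean percentile 93.4). Every INTACT value was lower there, but the difference did not pass the test (log2 difference -0.25, SE 0.09, limma adjusted p = 0.0651). Of 71 host genes tested 3 were called higher and 1 lower, beside 4.03% and 3.94% of all genes. Sema5a rose by 0.65 (limma adjusted p = 1.62e-06), Unc5b, a netrin receptor, and Sema3d rose by 0.78 and 0.73 and Celsr1, a cadherin of planar polarity, fell by 0.85 on the log2 scale (SE 0.20, 0.20 and 0.29, limma adjusted p = 0.00321, 0.00551 and 0.0218). The Celsr1 call, at means of 22.4 counts in FANS and 12.3 in INTACT, was lost without FANS replicate 2 or INTACT replicate 1 (limma adjusted p = 0.0609 and 0.0837).

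Of 88 chromatin regulators and transcription factors, 36 held 67 members, 9 (13.4%) higher in FANS and 3 (4.48%) in INTACT, near the 13.1% and 5.37% of all members. The 3 were in Zbtb20, Tet2, a methylcytosine dioxygenase, and Foxp2 (log2 difference 0.54, 0.78 and 0.84). The highest was at inner exon 24 of Chd7, a chromatin remodeller, with heights of 20.9, 20.3 and 20.5 in FANS and 21.4, 21.4 and 20.9 in INTACT (mean percentile 98.1). The difference did not pass the test (log2 difference 0.05, SE 0.05, limma adjusted p = 0.536). Of the 36 host genes 1 was called lower, again beside 3.94% of all genes: Sox5, a transcription factor of deep-layer neurons, which fell by 0.63 on the log2 scale (SE 0.07, limma adjusted p = 1.26e-07) and came under 1.5-fold without FANS replicate 4 (-0.58). Of 360 Zfp genes 35 held 39 members, 6 (15.4%) higher in FANS and 3 (7.69%), in Zfp654, Zfp804a and Zfp804b, in INTACT, beside the same shares of all members. Of 34 host genes tested 1 was called lower, beside the same share: Zfp609 fell by 0.60 on the log2 scale (SE 0.06, limma adjusted p = 6.74e-08) and came under 1.5-fold without FANS or INTACT replicate 4 (-0.57 and -0.55). The highest Zfp member, at Zfp169, had heights of 16.5, 17.4 and 16.02 in FANS and 17.6, 18.02 and 15.5 in INTACT (mean percentile 90.4), which overlap.

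Of genes induced by activity, 3 of 28 immediate early genes and 1 of 24 late effector genes held members (10.7% and 4.17%), beside 16.2% of all 23124 autosomal genes in the table. These genes were short, with medians of 5318 and 9423 bp, and the difference in share was not tested. The highest was at inner exon 3 of Atf3, a stress-induced transcription factor, with quantile-normalised heights of 10.7, 13.8 and 11.9 in FANS and 7.75, 8.39 and 10.7 in INTACT (log2 difference -0.45, SE 0.14, limma adjusted p = 0.0347). The lowest FANS and the highest INTACT library were almost level there, and leaving out any library but FANS replicate 1 or INTACT replicate 3 ended the call (limma adjusted p of 0.0855 to 0.17). Atf3 itself was listed at 0 in all 4 FANS RNA-seq libraries and at 1.73, 0.76, 0 and 0.66 normalised counts in INTACT. The late effector member, at inner exon 2 of Rasgrp1, a Ras activator, had heights of 5.31, 5.40 and 5.26 in FANS and 5.44, 4.58 and 5.35 in INTACT, which overlap. A member of Nr4a1, an orphan nuclear receptor, was higher in INTACT (log2 difference 0.63, limma adjusted p = 0.0124), at a low mean percentile of 6.12. The 3 immediate early members thus held 1 call in each direction. That is too few to compare with the 13.1% of all members higher in FANS and the 5.37% higher in INTACT. First exons near the start site are excluded by the rule.

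Among the neuronal marker lists, 4 of 16 excitatory genes (25%) held 6 members and 1 of 16 inhibitory genes (6.25%) held 1, beside 16.2% of all autosomal genes in the table. Of the 6 excitatory members that of Foxp2 was called, higher in INTACT, as was the 1 inhibitory member. Of all members 13.1% were higher in FANS and 5.37% in INTACT (10.1% and 10.9% of all regions). The calls on these lists are too few to compare with these shares. The inhibitory one was at inner exon 14 of Erbb4, a neuregulin receptor, with 5.38, 6.45 and 5.82 in FANS and 10.6, 8.39 and 11.3 in INTACT (log2 difference 0.77, SE 0.15, limma adjusted p = 0.00253). Every INTACT library was above every FANS library there. Erbb4 RNA was 107, 92.0, 108 and 130 normalised counts in FANS and 129, 128, 132 and 139 in INTACT (log2 fold change 0.28, SE 0.12, limma adjusted p = 0.0623), which did not pass the test, with overlap between techniques.

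Syne1, which encodes a giant protein of the outer nuclear membrane, held the most members, 15, all on inner exons. Anks1b and Cacna1b followed among 12 genes with 6 each. The Syne1 regions had mean percentiles from 9.67 to 91.7. The 2 highest were at exon 89 (chr10:5203638-5204563), with quantile-normalised heights of 16.9, 17.4 and 15.9 in FANS and 18.5, 19.0 and 16.7 in INTACT, and at exon 55 (chr10:5288871-5289847), with 15.6, 15.9 and 16.7 in FANS and 17.1, 15.3 and 15.8 in INTACT. The techniques overlapped in both. Of the 15 regions 1 was called, beside 13.1% of all members higher in FANS and 5.37% higher in INTACT (10.1% and 10.9% of all regions). It was that of exon 4 of a shorter transcript (chr10:5185038-5185788), with heights of 6.70, 6.88 and 7.32 in FANS and 5.08, 3.81 and 5.71 in INTACT (log2 difference -0.54, SE 0.17, limma adjusted p = 0.0359). The call was lost when any library other than INTACT replicate 3 was left out (limma adjusted p of 0.0544 to 0.117), with a difference of -0.38 without INTACT replicate 2. At gene level Syne1 had a mean of 11792 normalised counts. Anks1b, a postsynaptic scaffold, had a mean of 2491 and Cacna1b of 3103.

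Just inside the width limit were regions of Kbtbd11 (1994 bp) and Pmfbp1 (1978 bp), and just outside it those of Mgrn1 (2004 bp) and of Cbarp and Stk11 (2008 bp), with mean percentiles of 65.6, 50.7, 27.2 and 6.73. Just inside the distance limit were regions of Gm11665 (3006 bp) and Sox11 (3015 bp), and just outside it those of Mei1 (3000 bp) and Albfm1 (2999 bp), with 50.6, 3.32, 31.7 and 30.9.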

How the data were processed

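The authors aligned ATAC-seq reads to mm10 with Bowtie2, kept proper pairs with a mapping quality of at least 10 and ran the peak caller MACS2 on every library by itself. The deposited lists give for each peak its fold enrichment (a ratio), its -log10 p-value and -log10 q-value, and the summit, with no read counts, so depth is unknown. For the RNA-seq the authors used STAR, HTSeq and DESeq, and the deposited signal is read counts divided by a size factor. Whole reads could be recovered for 100% of the values (tolerance 0.006), with 4853224 to 6066759 reads on genes in FANS and 8621143 to 11028713 in INTACT. The row of reads outside features, 79.4 to 81.7% of all in FANS and 71.3 to 72.7% in INTACT, was left out. Exons and start sites came from curated RefSeq transcripts of GRCm38.p6, with bedtools 2.31.1.

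Heights were quantile-normalised on the log2 scale and fitted with limma 3.58.1 (trend, two-sided) over 74590 regions. RNA was fitted as log2(value + 1) over 15114 genes with a mean of at least 5, which understates changes of low genes. A gene was called at an adjusted p under 0.05 and at least 1.5-fold. Benjamini-Hochberg adjustment covered all regions or genes. edgeR 4.0.16 and DESeq2 1.42.0 were run on the recovered reads. The steps were tested on simulated data. The ATAC-seq fit recovered 15 of 100 log2 differences of 0.6 and 67 of 100 of 1.0, with 9 false calls. A region that was not called may therefore still differ. The limma fit of the RNA-seq recovered 80 of 100 log2 differences of 1.0 and 93 of 100 of 2.0, with 3 false calls. Motifs, GC content and 31-base words were read from the genome. Libraries of batch 2 and batch 3 were not used here, and a few items that the rule for named genes picks are not reported here.

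The members, the gene lists and the rule for named genes were chosen with earlier results of these data known. Named were the 10 highest members and the 3 highest of each exon class. The 5 largest called differences in each direction were also named (regions and, at a mean of at least 50, host genes). For each of 14 lists, the gene with the highest member and up to 3 called host genes were named. To these were added the 3 genes with the most members (ties by name), the 3 highest and lowest per kb among tested genes, and regions at each limit. The sequence rule, inner and fully coding members, was read as exonic bases that are all coding. The share of words with copies, the families that share them and the other genes named for small counts were chosen after the data were seen.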

Additional observations from a re-analysis of the deposited data

Results flagged for a closer look

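In 8 of 116 groups of 4 RNA-seq libraries for the named host genes, a single library stood apart from the other 3 by most of the range of its group. Chance alone gives about 1 in 20 such groups. In INTACT, replicate 2 was the lowest for 4931430N09Rik (32.9 normalised counts, the others 52.2 to 54.5). Replicate 1 was the highest for Erc1 (622.9, the others 521.6 to 535.3) and for Kcna6 (928.3, the others 836.8 to 851.4). In FANS, replicate 3 was the highest for Kcnip4 (711.4, the others 581.2 to 585.3) and for Lars2 (4338, the others 4103 to 4116), and replicate 4 for Pcdh17 (849.7, the others 613.2 to 651.1) and for Syne1 (13904, the others 11778 to 12093). Replicate 1 was the lowest for Sema3d (24.4, the others 25.75 to 25.98).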

How the results depend on the processing

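The number of members ran from 4289 to 5979 over distances of 1 or 5 kb, predicted transcripts, a stricter peak threshold and lists left out in turn (4959 to 5589), but was 1391 when at least 50% of a region had to be exonic. Then 19.2% were on inner and 79.7% on last exons, an alternative chosen after seeing the data, and with predicted transcripts 57.3% and 36.8%. The median percentile was 41.4 with the -log10 q-value or the -log10 p-value as height, against 40.5. Calls towards FANS and INTACT were 1033 and 106 without scaling and 1670 and 858 with the -log10 q-value. With each library left out in turn they were 419 to 669 and 181 to 258, with 433 towards FANS without FANS replicate 1 and 419 without FANS replicate 2; fewer libraries were then compared. The log2 difference of Slc1a6 was 0.025 with the -log10 q-value. The cause of these shifts was not tested. Host genes called higher were 45 to 62 and lower 93 to 118 over all alternatives. Same-numbered libraries did not deviate together (r of -0.00168 to 0.0116 in ATAC-seq and -0.0704 to -0.0103 in RNA-seq). Replicates of 1 source may share little deviation even when paired, so this cannot tell whether the numbers pair samples. The replicate block gave 663 and 270 regions and 54 host genes higher in INTACT and moved no count by over 1.5 times. Of 172 values for 16 named regions, 155 kept their direction and call and 16 lost the call (in Slc1a6, Lars2, Atf3 and Syne1), and of 345 for 23 named genes 336 and 9 did (in Celsr1, Cnp, Sox5 and Zfp609). The ATAC-seq lists give no depth, and the ATAC-seq and batch 1 RNA-seq libraries used here each came from 1 source, so spread between sources was not measured.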
